A study of Mus musculus with 2 samples.

Results

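The genes described here are those of the interleukins and of their receptors, binding proteins and antagonists. They were taken as every probe whose platform symbol begins with Il and a digit, without Il1a, Il1b, Il18 and Il5ra. This gave 97 probes for 68 genes, of 16590 named genes on the array. The cells were sorted by green fluorescence from lungs of BALB/c mice that carried an S100A4-GFP transgene, in which the fluorescence marks cells expressing S100A4, a calcium-binding protein of fibroblasts and of many migrating and immune cells. The normal group came from lungs described as normal in transgenic mice, and the metastatic group from lungs with metastases in transgenic animals that bore 4T1 tumours, grown from a mammary carcinoma line of the mouse. Total RNA of each group was measured on 1 Illumina bead array. Not given in the sources used here were the promoter of the transgene, the age and number of the animals and any pooling.

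Interleukins are small secreted proteins through which leukocytes, stromal and epithelial cells signal to each other. Most bind a receptor of several chains, and a response usually needs the full set. The receptors of the IL-2, IL-6, IL-10 and IL-12 families act through JAK kinases and STAT transcription factors, whereas those of the IL-1 and IL-17 families act through adaptor proteins and NF-kB. In the lung these signals guide the recruitment of neutrophils, eosinophils and lymphocytes and the repair of the epithelium.

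Each group had 1 array, so differences have no replicate check and carry no p-value, and array and condition cannot be told apart. Precision is limited by this number of arrays. A probe was called detected at a detection p below 0.01, which 42.6% (normal lung) and 40.9% (metastatic lung) of the 25697 probes reached. Below, a signal is the deposited intensity in arbitrary units, on which the background had a mean of 58.3 for normal lung and 54.5 for metastatic lung. A ratio is metastatic over normal lung after background correction and normalization, on a log2 scale with an offset of 16 that understates the ratios of dim genes. Over 1648 genes with a pair of probes detected on both arrays, the ratio of a probe had an SD of 0.25 on the log2 scale, so that ratios within 0.50 of 0 lie inside 2 SD of this technical spread. S100a4, the sorting gene, had signals of 743 and 1122. The cell label was stromal. Of 11 fibroblast markers on the array 8 were detected, among them Inmt with signals of 889 and 187 and Pdgfra with 375 and 102, while Col1a1, Lum and Pdgfrb were detected on neither array. The myeloid lysozyme gene Lyz2 had signals of 2717 and 3097.

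Of the 68 genes, 29 were detected on at least 1 array, each represented by its brightest probe, and 23 of these on both. The cytokine genes Il6, Il10 and Il5 were higher in the metastatic-lung cells, as were the receptor chain genes Il10rb, Il1rap and Il18rap. The genes Il4i1, Il17rd, Il18r1, Il16 and Il27ra were lower. Under at least 1 other way of processing the arrays, Il5, Il10rb, Il1rap, Il18rap and Il27ra fell short of 2-fold, with log2 ratios as near to 0 as 0.97, 0.78, 0.55, 0.51 and -0.75. In all, 6 of the 29 detected members (20.7%) were at least 2-fold higher, against 5.89% of 8128 genes detected on at least 1 array, and 5 (17.2%) were at least 2-fold lower, against 10.2%. Where 1 array alone detected a gene, its ratio is known only as a bound, reckoned against the lowest detected value of the dim array. Such a bound, given below as "at least", holds for the processing used here only, and other processing can give a smaller ratio. With such genes at their bounds 4 members (13.8%) were higher, against 5.09% of all genes, and 5 lower, against 8.16%. Among members detected on both arrays, 3 of 23 were at least 2-fold higher and 5 lower, against 5.07% and 7.02% of 6904 genes. The median log2 ratio of the 29 members was -0.05, close to the 0.01 of all detected genes, and members went both ways. No member was a gene with a very large difference: the ratios ran from -2.29 to 1.84, whereas those of all detected genes ran from -4.62 to 6.24.

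**Figure D1:**
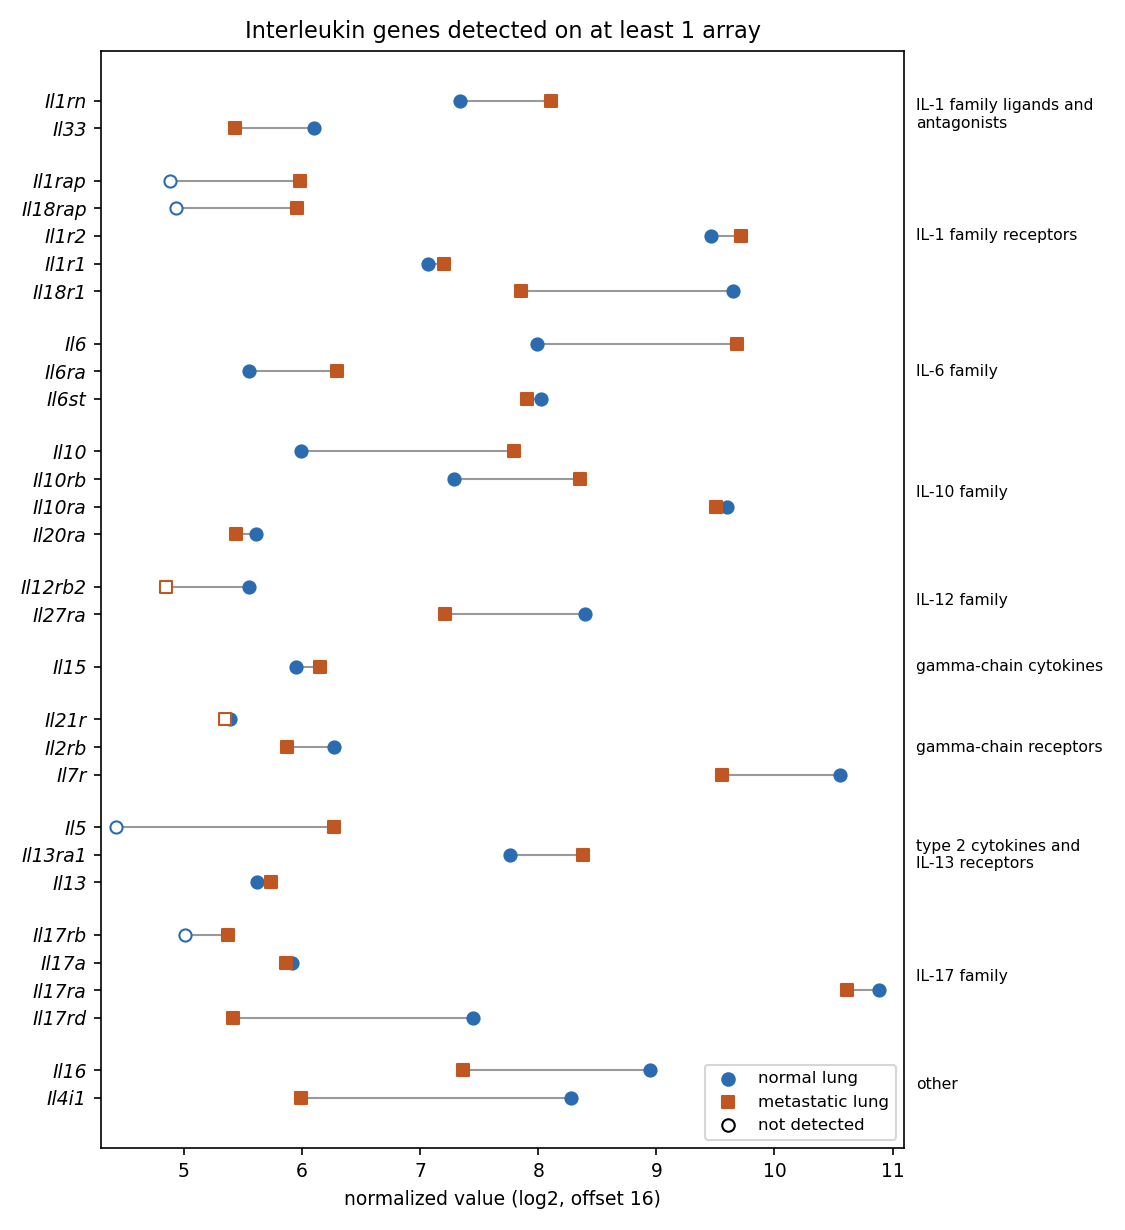
Normalized log2 values of the 29 interleukin genes detected on at least 1 array, grouped by family, with circles for normal lung and squares for metastatic lung. Open symbols mark an array on which the gene was not detected, and a line joins the values of a gene. Each symbol is 1 array. Il6, Il10 and Il5 have their squares to the right of their circles, and Il4i1, Il17rd, Il18r1 and Il16 have them to the left. Distances along a line can be read, but different genes are read by different probes and their levels cannot be ranked.

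Among the secreted cytokines, Il6, Il10 and Il5 had the highest ratios. Il6 encodes interleukin-6, which drives the acute-phase response. Its probe read 294 in normal lung and 898 in metastatic lung, a log2 ratio of 1.70 (3.24-fold higher). Il10 encodes an anti-inflammatory cytokine that restrains macrophages. The signal was 108 against 263, a log2 ratio of 1.80 (3.48-fold higher). Both genes were above background on both arrays, and of the 6904 genes detected on both, 53 had a ratio at least as high as Il10 and 61 at least as high as Il6, each gene itself included. Il5 encodes the growth and survival factor of eosinophils. It was at background in the normal-lung cells (signal 58.0, detection p 0.442) and detected in the metastatic-lung cells (signal 114, detection p 0.00125), so that in the processing used it was at least 2.03-fold higher. In the authors' processed values, without further normalization, its log2 ratio was 0.97, which is below that bound. Each of these genes was read by a single probe.

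The promoters of Il6 and Il5 are shown as the regulatory sequences of cytokine genes that were higher together in the metastatic-lung cells. They run from 250 bases before to 50 bases after the start of the gene in RefSeq (build GRCm38.p6), 5′ to 3′ on the strand of the gene. Capitals mark matches to the motifs searched.
Il6, chr5:30012864-30013163, plus strand: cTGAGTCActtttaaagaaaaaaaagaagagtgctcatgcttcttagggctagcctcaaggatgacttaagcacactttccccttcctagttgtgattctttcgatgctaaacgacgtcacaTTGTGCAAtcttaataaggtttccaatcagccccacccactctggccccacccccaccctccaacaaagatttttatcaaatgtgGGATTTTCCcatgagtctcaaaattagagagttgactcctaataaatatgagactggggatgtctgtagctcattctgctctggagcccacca
Il5, chr11:53720544-53720843, plus strand: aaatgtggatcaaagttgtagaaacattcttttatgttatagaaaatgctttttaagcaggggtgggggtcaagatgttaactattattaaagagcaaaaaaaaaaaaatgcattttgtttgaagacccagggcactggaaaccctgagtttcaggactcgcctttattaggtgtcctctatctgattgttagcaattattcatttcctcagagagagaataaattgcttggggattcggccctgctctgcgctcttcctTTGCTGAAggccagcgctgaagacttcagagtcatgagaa

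The motifs were searched on both strands, with N for any base, and the matches shown do not overlap each other. With the first base of the gene at 0, the Il6 promoter held an NF-kB match (GGNNTTTCC) at -43 to -35, a C/EBP match (TTNNGNAA) at -128 to -121 and an AP-1 match (TGAGTCA) at -249 to -243. The Il5 promoter held a C/EBP match on the opposite strand at 10 to 17. Neither held a match to STAT (TTCNNNGAA), to CRE (TGACGTCA) or to AGATAA, the only letters searched for GATA transcription factors. Other forms of these motifs were not searched, so a GATA, CRE or STAT site in either promoter is not excluded. Of 32817 promoters of the same length, 5.83% held the NF-kB motif, 5.20% AP-1, 40.7% C/EBP, 8.29% STAT, 11.2% GATA and 1.79% CRE. Among detected members with a promoter in the table, the NF-kB letters stood in 2 of 4 that were at least 2-fold higher (Il6 and Il18rap). They stood in 1 of 4 that were at least 2-fold lower (Il16) and in 2 of 14 others (Il13 and Il1rn). In the same order, AP-1 stood in 1 of 4, 1 of 4 and 3 of 14, and C/EBP in 3 of 4, 2 of 4 and 8 of 14. STAT stood in 0, 1 and 3 of them, AGATAA in 0, 0 and 2, and CRE in 0 of each. No promoter was available for Il10, Il10rb and Il27ra, and no difference between these groups was tested.

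The remaining detected ligands differed less, apart from Il16. Il16 encodes a chemoattractant of CD4-bearing cells that is made as a large precursor. The signal was 519 in normal lung against 203 in metastatic lung, a log2 ratio of -1.58 (2.98-fold lower). Il33 encodes an alarm cytokine stored in the nuclei of lung epithelial and stromal cells. With signals of 113 and 80.1 its log2 ratio was -0.67, which is under 2-fold. It lay outside 2 SD of the probe spread here. The ratio was smaller in size in 3 of 5 alternatives, for which the probe spread was not measured. It was -0.38 without background correction, -0.41 with an offset of 50 and -0.26 in the authors' values. Il15, a growth factor of NK and memory T cells, had signals of 106 and 108 and a log2 ratio of 0.20. The type 2 cytokine gene Il13 had signals of 94.0 and 89.9 and a log2 ratio of 0.12, and Il17a, a cytokine of T cells that draws neutrophils, had 105 and 94.9 and a log2 ratio of -0.05. These last 3 ratios lie inside the probe spread. Il13 and Il5 lie in the same cytokine cluster of the genome and both belong to type 2 immunity, but here Il5 passed from background to detection while Il13 was detected on both arrays near the same signal.

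Of the natural inhibitors, Il1rn was detected. It encodes the IL-1 receptor antagonist, which occupies the IL-1 receptor without signalling. On its brightest probe the signal was 205 in normal lung against 320 in metastatic lung, a log2 ratio of 0.77 (1.71-fold higher). Another probe had signals of 89.4 and 120 and a log2 ratio of 0.90, so that both detected probes were higher and neither reached 2-fold. The IL-18 binding protein gene Il18bp was detected on neither array.

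The receptor chains of the higher cytokines did not move as units. IL-6 binds Il6ra and then the shared signalling chain gp130, encoded by Il6st. Il6ra had signals of 91.5 and 115, a log2 ratio of 0.75 (1.68-fold higher), and Il6st had 299 and 279, a log2 ratio of -0.12. IL-10 binds the ligand-specific chain Il10ra and the chain Il10rb, which is shared with the receptors of IL-22 and of lambda interferons. Il10rb went from 200 in normal lung to 373 in metastatic lung, a log2 ratio of 1.07 (2.09-fold higher), just past 2-fold. Il10ra was nearly equal on both arrays, with signals of 784 and 795 and a log2 ratio of -0.09. The IL-20 receptor chain gene Il20ra had signals of 93.8 and 80.2 and a log2 ratio of -0.18.

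Of the IL-1 receptor chains, the accessory chain had the highest ratio. Il1rap encodes the accessory chain that the receptors of IL-1, IL-33 and IL-36 need in order to signal. The brightest of its probes read 72.5 (detection p 0.0313) in normal lung and 100.2 (detection p 0.00125) in metastatic lung, at least 1.67-fold higher in the processing used. The log2 ratio was 0.55 in the authors' processed values and 0.58 without background correction, both below that bound. Of its 6 probes, 5 were detected, all on the metastatic-lung array only, and their measured log2 ratios ran from 0.72 to 1.10. The ligand-binding chain gene Il1r1 was nearly equal, with signals of 178 and 184 on its brightest probe (log2 ratio 0.13) and a log2 ratio of 0.29 on its other probe. Il1r2, which encodes a decoy receptor without a signalling domain that neutrophils carry in quantity, had signals of 718 and 918 and a log2 ratio of 0.26, inside the probe spread.

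The IL-18 receptor is made of the chains encoded by Il18r1 and Il18rap, found together on T, NK and other lymphoid cells. Il18r1 read 816 in normal lung and 271 in metastatic lung, a log2 ratio of -1.80 (3.48-fold lower). Il18rap went the other way, from a signal of 73.8 (detection p 0.0263) to 99.0 (detection p 0.00125), at least 1.64-fold higher in the processing used. The log2 ratio of Il18rap was 0.51 in the authors' processed values and 0.54 without background correction, again below the bound. The lower chain was well above background on both arrays, whereas the higher one was dim on both.

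**Figure D2:**
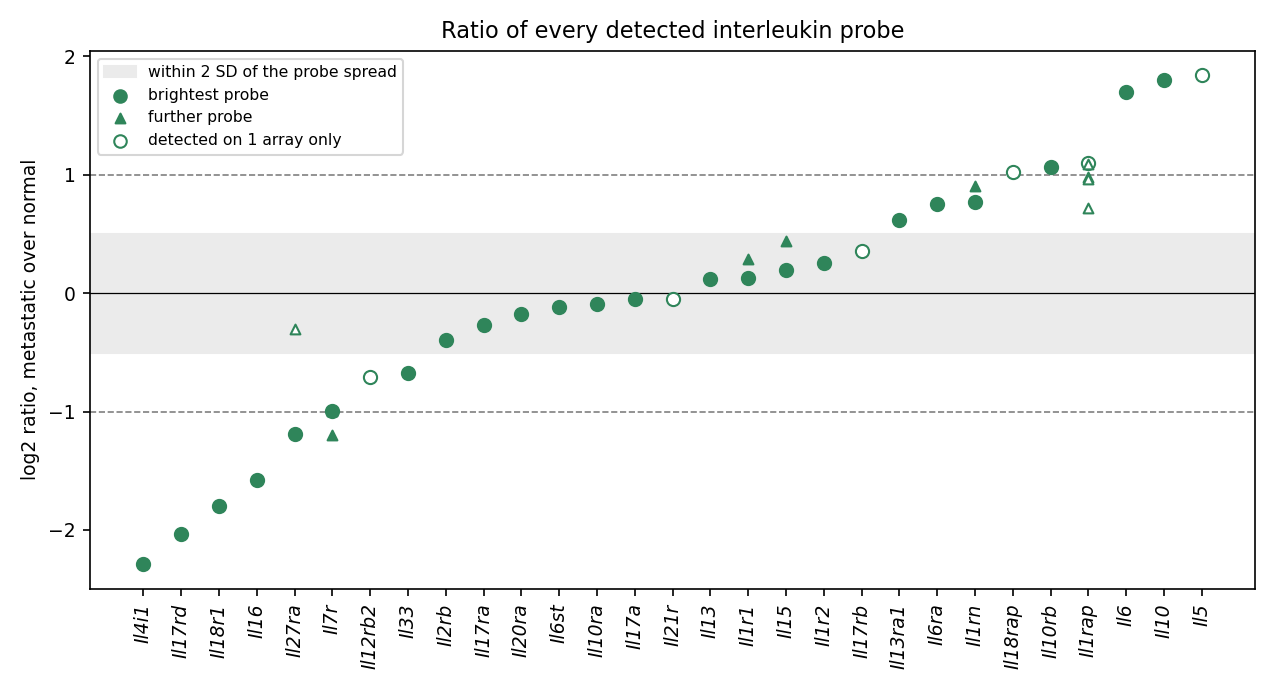
Log2 ratio, metastatic over normal, of each of the 39 interleukin probes detected on at least 1 array, ordered by the ratio of the brightest probe of the gene. Circles are brightest probes, triangles further probes of the same gene, and open symbols were detected on 1 array only. The grey band spans 2 SD of the probe spread (0.50 either way) and dashed lines mark 2-fold. The 3 Il7r probes lie close together, while the Il27ra probes lie apart.

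Further receptors that lymphocytes carry are those of IL-7, IL-27, IL-12, IL-2 and IL-21. Il7r encodes the IL-7 receptor chain on which T cells and innate lymphoid cells depend. It was read by 3 probes, all detected on both arrays. The brightest read 1485 in normal lung and 820 in metastatic lung, a log2 ratio of -0.997 (1.996-fold lower), just short of the 2-fold threshold. The others had log2 ratios of -1.20 and -0.99, so that the Il7r probes differed from each other by less than their common distance from 0. Il27ra, a receptor chain for IL-27 that tempers T cell responses, had signals of 373 and 185 on its brightest probe, a log2 ratio of -1.19 (2.28-fold lower). Its other probe, with signals of 88.3 and 72.7, had a log2 ratio of -0.30. Il12rb2, the signalling chain of the IL-12 receptor on T and NK cells, was detected in the normal-lung cells only, with signals of 91.7 and 65.6, and was at least 1.15-fold lower. Il2rb, the chain shared by the IL-2 and IL-15 receptors, had signals of 122 and 95.3 and a log2 ratio of -0.40, inside the probe spread. Il21r, the IL-21 receptor gene, was close to the detection limit on both arrays, with signals of 86.4 and 77.6.

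Beside these receptors, most detected T and NK cell markers were lower as well. Of 22 marker genes 20 were on the array and 15 were detected. The detected markers were at least 2-fold lower in 9 cases by the measured ratio, 8 with bounds, and higher in 0. Their median log2 ratio was -1.27, and their summed level, the sum of background-corrected normalized values, was 2890 against 1660 in metastatic lung. Cd3d, a chain of the T cell receptor complex, was 4.82-fold lower. In 3 of the 15 the log2 ratio was above 0, namely Icos at 0.26, Cd8a at 0.19 and Prf1 at 0.05. Prf1 had the highest signals of these markers, 1135 and 1279, and so weighed most in the summed levels. The markers Cd247, Cd5, Eomes, Gzmb and Tbx21 were detected on neither array. In RNA of a whole sorted population, fewer cells of a type and less RNA per cell cannot be told apart, and the part of these cells in the receptor differences was not tested.

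Within the IL-17 family the main receptor chain and a modulator differed. Il17rd encodes a membrane protein, also called Sef, that dampens fibroblast growth factor signalling and binds other IL-17 receptor chains. Its signal was 217 against 79.6 in metastatic lung, a log2 ratio of -2.03 (4.10-fold lower). On the metastatic-lung array its detection p of 0.00752 was close to the threshold. Il17ra, the chain common to most IL-17 receptors, had high signals on both arrays, 1871 and 1669, with a log2 ratio of -0.27. Il17rb, the chain for IL-25, was detected in the metastatic-lung cells only, with signals of 75.9 and 78.3, and was at least 1.09-fold higher. Endothelial markers, given here because they were the lowest of the cell type lists, had 11 of 12 genes on the array and 10 detected, of which 9 were at least 2-fold lower. Their summed level was 4882 against 501 in metastatic lung, with Cdh5 detected on neither array. Fibroblast markers had 8 of 11 detected, all at least 2-fold lower by the measured ratio and 7 with bounds, with summed levels of 2536 and 468. The part of either cell type in the Il17rd and Il33 differences was not tested.

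The IL-4 receptor chain gene Il4ra was not among the members. Of the IL-13 receptor chain genes, Il13ra1 was detected. It encodes the chain that joins the IL-4 receptor to bind IL-4 or IL-13 on myeloid and stromal cells. With 258 in normal lung and 378 in metastatic lung it had a log2 ratio of 0.62 (1.53-fold higher), under 2-fold. It lay outside 2 SD of the probe spread here. In the authors' processed values, for which the probe spread was not measured, the log2 ratio was 0.44. The shared beta chains of the IL-3, IL-5 and GM-CSF receptors carry no interleukin name. Csf2rb was 2.20-fold higher, with signals of 105 and 171, and Csf2rb2, the mouse beta chain that serves IL-3, was 2.11-fold higher, with signals of 340 and 711. The GM-CSF receptor alpha chain gene Csf2ra had a log2 ratio of -0.36.

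The lowest ratio of all 29 detected members was that of a gene that bears the name but is no cytokine or receptor. Il4i1 encodes a secreted enzyme that oxidises phenylalanine and other aromatic amino acids, made by dendritic cells, macrophages and B cells. The signal was 347 in normal lung against 100.4 in metastatic lung, a log2 ratio of -2.29 (4.89-fold lower). Of the 6904 genes detected on both arrays, 94 had a ratio at least as low, Il4i1 included. Dendritic cell markers were lower beside it, with 11 of 11 genes on the array, 9 detected and 6 at least 2-fold lower, and summed levels of 6067 and 1973. Their markers Ccl22 and Xcr1 were detected on neither array. Macrophage and monocyte markers had 9 of 12 genes on the array, all 9 detected and 6 at least 2-fold lower, with summed levels of 13193 and 6299. The others were under 2-fold, with log2 ratios of 0.46 for Ccr2, -0.30 for Adgre1 and 0.04 for Lyz2. Chil3, with signals of 5414 and 1137, weighed most in the normal-lung sum. B cell markers had 5 of 9 detected and 4 at least 2-fold lower by the measured ratio, 2 with bounds, with summed levels of 699 and 354. Fcer2a, the brightest of them, was nearly equal, with signals of 352 and 355. The markers Cd79a, Cr2, Ms4a1 and Pax5 were detected on neither array. The part of these cells in the Il4i1 difference was not tested.

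**Figure D3:**
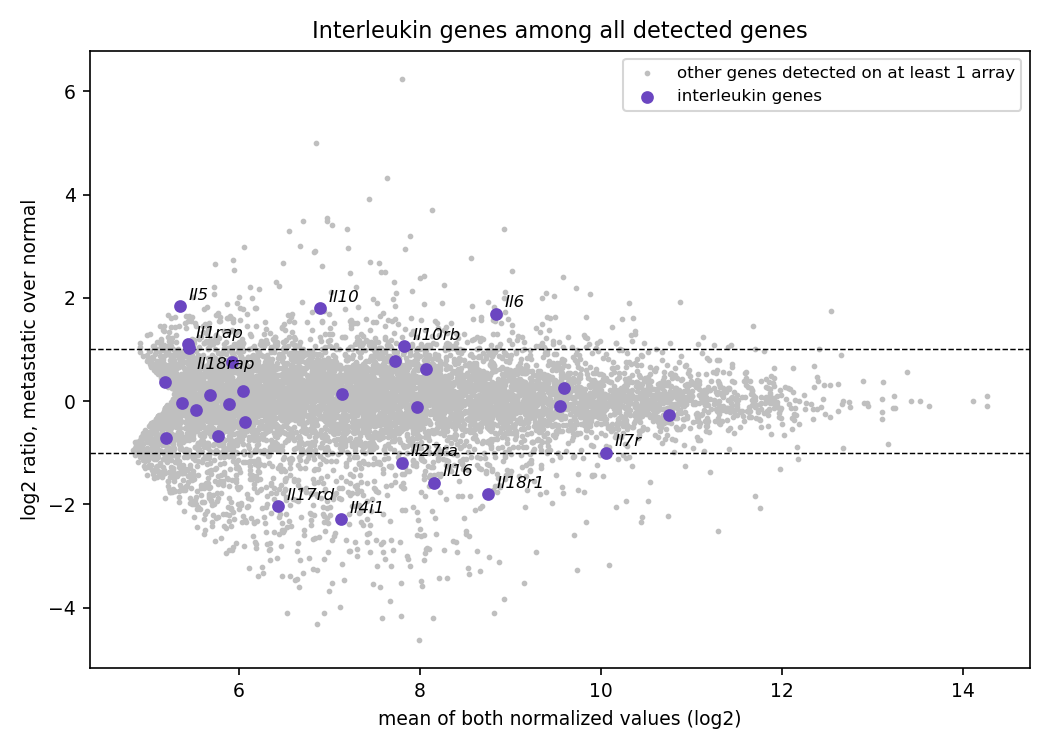
Log2 ratio, metastatic over normal, against the mean of both normalized log2 values for the 8128 genes detected on at least 1 array (grey) and the 29 interleukin genes among them (purple). Dashed lines mark 2-fold. Labelled members are those with a ratio of at least 0.99 in size, and most others lie in the dense band around 0.

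The cytokine genes that were higher stood beside neutrophil markers of which most, but not all, were higher. All 15 neutrophil markers on the array, of 16, were detected. Of these 10 were at least 2-fold higher and 0 lower, and their summed level was 4889 against 10099 in metastatic lung. S100a9 went the other way, with signals of 2522 and 1542 and a log2 ratio of -0.85, and Cxcr2 had a log2 ratio of -0.23. Mast cell and basophil markers, which mark cells able to make IL-5, IL-6 and IL-13, had 9 of 10 genes on the array and 4 detected. Mcpt8, a basophil protease gene, was 3.72-fold higher, and Cpa3 had a log2 ratio of 0.64. Fcer1a was detected in the metastatic-lung cells only and was at least 1.16-fold higher. Gata2, a transcription factor gene, had a log2 ratio of -1.32. Measured ratios were above 0 in 3 of the 4, with a median log2 ratio of 0.58. The summed levels of 868 and 907 were close, and Gata2, with signals of 718 and 326, weighed most in the normal-lung sum. Cma1, Mcpt4, Ms4a2, Prss34 and Tpsb2 were detected on neither array. Epithelial and carcinoma markers had 11 of 12 genes on the array and 6 detected, with summed levels of 6462 and 3578. Of the 6, 2 were at least 2-fold lower by the measured ratio, 1 with bounds, and 0 higher. Cldn3, Cldn4, Krt14, Krt5 and Sftpb were detected on neither array. The part of any of these cell types in the Il6, Il10 and Il5 differences was not tested.

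The genes of the signalling pathway were described from lists that hold no member. Among partner subunits and related ligands 15 of 18 genes were on the array and 7 detected, of which 3 were at least 2-fold higher and 0 lower, with a median log2 ratio of 0.90. Lif, a cytokine that signals through gp130, was detected in the metastatic-lung cells only, with signals of 68.3 and 128, and was at least 2.41-fold higher. Osm, encoding oncostatin M of the same family, had high signals of 4481 and 9551 and a log2 ratio of 0.90 (1.87-fold higher). Lifr, a receptor chain that pairs with gp130, had a log2 ratio of -0.86. The oncostatin M receptor chain gene Osmr was detected on neither array. Hence 3 ligands that use gp130, Il6, Lif and Osm, had ratios above 0 while Il6st itself had -0.12.

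Of the JAK kinases and STAT factors 10 of 11 were on the array and 9 detected, of which 1 was at least 2-fold higher and 0 lower, with a median of 0.29. That gene was Jak2, a kinase bound to the IL-6 and IL-5 receptor chains, with signals of 223 and 533 (2.67-fold higher). Tyk2 had a log2 ratio of 0.60, Stat5b of -0.52 and Stat2 of 0.38. Stat3, the main factor downstream of IL-6 and IL-10, had signals of 1447 and 1937 and a log2 ratio of 0.32, inside the probe spread. Of the 11 feedback inhibitors, 8 were detected, 0 at least 2-fold higher and 1 lower, with a median of 0.19. Socs2 was 2.99-fold lower, with signals of 425 and 167. Socs3, the inhibitor of gp130 signalling that STAT3 induces, had signals of 710 and 1427 and a log2 ratio of 0.93 (1.91-fold higher). Socs6 had a log2 ratio of 0.95 and the phosphatase gene Ptpn6 of -0.55.

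Downstream of the IL-1 and IL-17 receptors all 16 genes on the array, of 18, were detected, of which 2 were at least 2-fold higher and 0 lower, with a median of 0.32. Irak2, a kinase of the IL-1 receptor complex, had signals of 138 and 309 (2.86-fold higher). Nfkbia, which encodes the NF-kB inhibitor that NF-kB itself induces, had 100.3 and 163 (2.27-fold higher). Ikbkb had a log2 ratio of 0.89, and Traf3ip2, the adaptor of IL-17 receptors, was detected in the normal-lung cells only and was at least 1.17-fold lower. The adaptor gene Myd88 had a log2 ratio of 0.41.

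**Figure D4:**
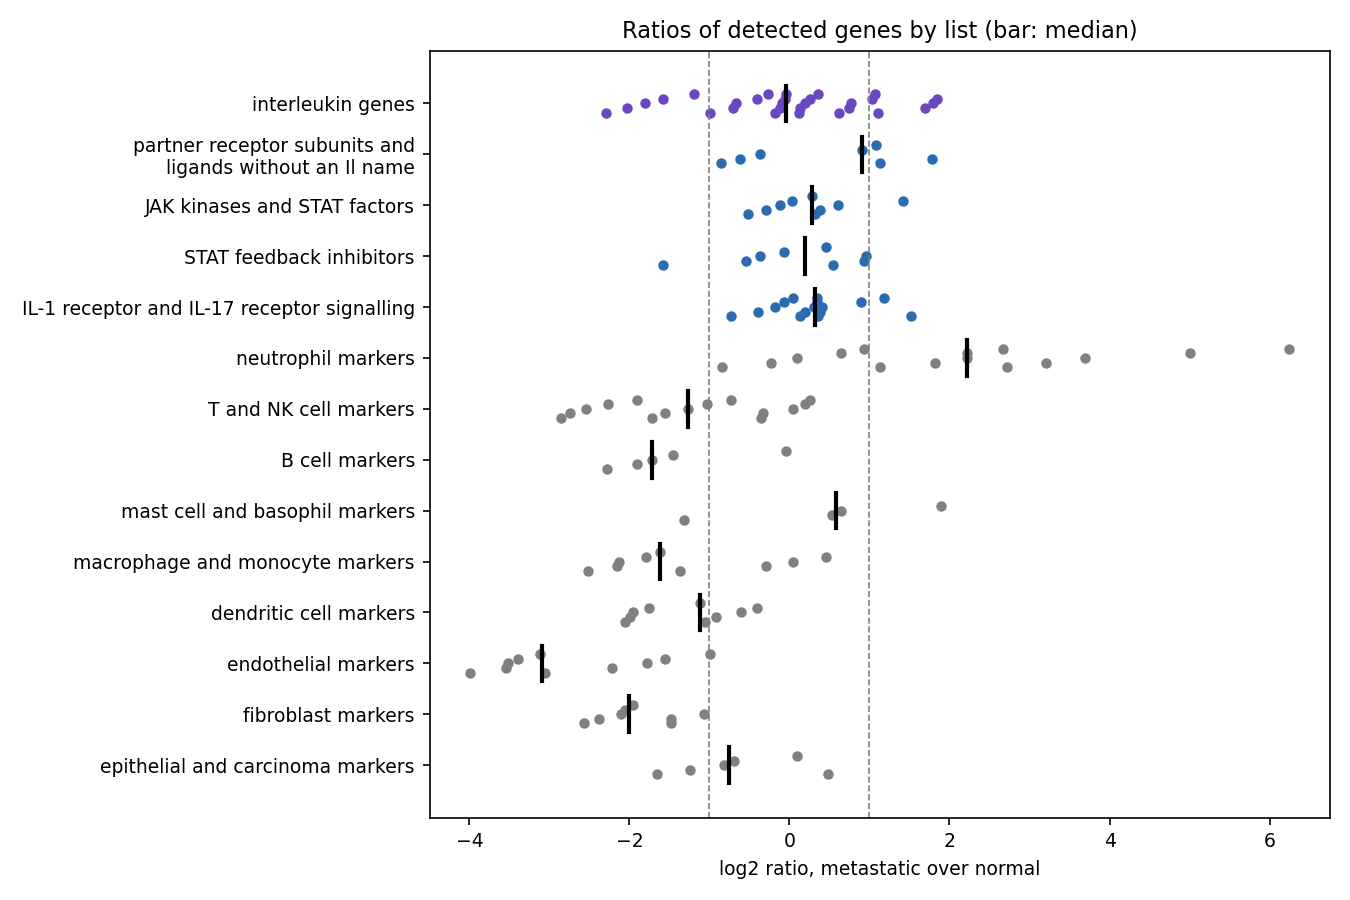
Log2 ratio, metastatic over normal, of the detected genes of each list, with 1 point per gene and a bar at the median of the list. Interleukin genes are purple, signalling lists blue and cell type markers grey, and dashed lines mark 2-fold. The interleukin genes spread to both sides of a median of -0.05, the signalling lists have medians from 0.19 to 0.90, and the endothelial, fibroblast and T cell markers lie mostly below 0.

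By role, the members divided unevenly. Of 30 ligand genes 8 were detected, of which 3 were at least 2-fold higher and 1 lower, with a median log2 ratio of 0.16. Of 34 receptor genes 19 were detected, of which 3 were at least 2-fold higher by the measured ratio, 1 with bounds, and 3 lower, with a median of -0.09. The background shares are those given above, and no difference between ligands and receptors was tested.

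Detected on neither array were 39 members, which have no fold. Among ligands these were Il3, Il4, Il7, Il9, Il11, Il12a, Il19, Il20, Il21, Il22, Il23a, Il24, Il25, Il27, Il34, the IL-17 genes Il17b, Il17c, Il17d and Il17f, and the IL-36 and IL-38 type genes Il1f6, Il1f9 and Il1f10. The antagonist gene Il1f5 belonged to them too. Among receptors they were Il2ra, Il3ra, Il9r, Il12rb1, Il13ra2, Il15ra, Il17rc, Il17re, Il20rb, Il22ra1, Il22ra2, Il23r, Il31ra, Il1rl2 and Il1rapl2. The lowest detection p of a brightest probe among them was 0.0125 in the normal-lung and 0.0138 in the metastatic-lung cells. Il4, Il12a, Il23a and Il27 were therefore not detectable here, which does not show that they are absent. Ebi3, which encodes the partner subunit of IL-27 and carries no interleukin name, was detected on both arrays, with signals of 278 and 191 and a log2 ratio of -0.62.

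**Figure D5:**
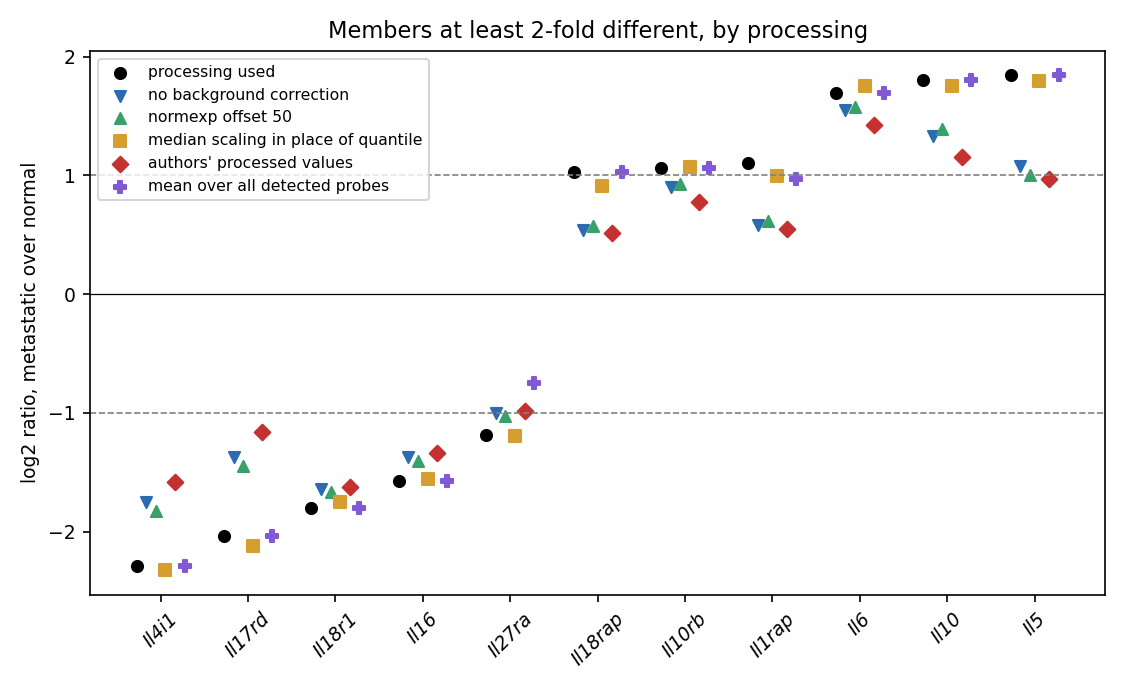
Log2 ratio, metastatic over normal, of the 11 members at least 2-fold different, under the processing used (black) and under 5 alternatives (colours). Dashed lines mark 2-fold. Each gene stays on its side of 0 in all 6. Il6, Il10, Il16, Il17rd, Il18r1 and Il4i1 stay past 2-fold, whereas Il10rb, Il18rap, Il1rap, Il27ra and Il5 fall short of it under at least 1 alternative.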

How the data were processed

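The authors deposited a non-normalized table with an intensity and a detection p-value per probe and array, and a further table of processed intensity values. The submitters' processing notes name BeadStudio and give no version. Per the labels, a Qiagen RNeasy Plus Micro kit served for extraction and a NuGEN WT-Ovation Pico kit for the biotinylated cRNA. Not given in the sources used here was how the detection p-values were made.

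Intensities were background-corrected with neqc (limma 3.58.1, R 4.3.3), which estimated background from the detection p-values, with 16 as the offset, followed by quantile normalization and log2. The authors' processed values served as an alternative. Probe names came from the platform's 2016 annotation, updated to RefSeq symbols (GRCm38.p6). Of all probes, 23978 had 1 symbol, 0 had several and 1719 had none. All 68 members matched by gene identifier. Each gene was represented by its brightest probe, by the mean of both normalized values. A gene counted as higher at a log2 ratio of at least 1 if detected in metastatic lung, and as lower at -1 or less if detected in normal lung. For bounds, the dim array's value was set no lower than its dimmest detected probe (log2 5.25 for normal, 5.36 for metastatic lung). The spread of probes covers neither sort, animals nor amplification. The normalization was also run on simulated arrays with levels taken from the measured ones and known changes planted in bright probes only. This run did not cover dim genes or the bounds.

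With 1 array per group no test was possible. Every member detected on at least 1 array is given with its values, and up to 4 genes with the largest ratios of each signalling list are named, with subunits that complete a receptor. Stat3, Myd88 and Lyz2 fall outside this rule. Members, lists and motifs were chosen with earlier results of these data known. The motifs, the splits by role and the cell markers named were chosen after the values were seen. Software was Python 3.11.15 with pandas 2.3.3, numpy 2.4.6 and matplotlib 3.10.9.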

Additional observations from a re-analysis of the deposited data

How the results depend on the processing

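The count of members at least 2-fold higher, 6 in the processing used, changed with the processing and the detection filter. It was 3 without background correction, 3 with an offset of 50, 2 in the authors' processed values and 3 with detection on both arrays. In the first 2 of these settings the genes were Il5, Il6 and Il10, and in the authors' values Il6 and Il10. Counts over all genes were lower too, from 479 of 8128 to 210, 239 and 159 in the first 3 settings and 350 with detection on both arrays. An offset of 50 adds a larger constant, and detection on both arrays drops genes. For the other settings the cause was not tested. The count was 4 to 6 under the other 4 alternatives. The count of lower members was 5 under all 8, but in the authors' values and with the mean over detected probes Il7r took the place of Il27ra. The median stayed between -0.09 and 0.04. For single members, 30 of 145 ratios under 5 alternatives moved by more than the probe SD, and no ratio of a member past 2-fold changed sign. Il1rap was past 2-fold in 0 of 5 alternatives, Il18rap in 1, Il10rb in 2, Il27ra in 3 and Il5 in 4. No paired analysis was possible because each group has 1 array. Signal over background limits Il5, Il18rap and Il1rap, which did not reach the detection threshold in normal-lung cells.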

Other observations

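Pairs of chains that form 1 receptor had unlike ratios in several cases, given here as values. The log2 ratio was -1.80 for Il18r1 and 1.03 for Il18rap, 1.07 for Il10rb and -0.09 for Il10ra, 0.75 for Il6ra and -0.12 for Il6st, and 1.10 for Il1rap and 0.13 for Il1r1. Il18rap and Il1rap were detected on the metastatic-lung array only, and their log2 ratios at the bound were 0.71 and 0.74. Each chain was read by its own probes, and no difference between chains was tested.

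Of the 15 member genes with more than 1 probe, 6 had further probes that were detected. These further probes numbered 10, and each had the sign of its gene's brightest probe. The probes of Il27ra differed most, with log2 ratios of -1.19 and -0.30, the second from a probe with signals of 88.3 and 72.7, near background. The Il1rap probe that carries a different transcript accession from the rest had a log2 ratio of 0.98, inside the range of the others.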
